A study of Mus musculus with 12 samples.

Results

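The comparison described here sets prefrontal cortex of mice lacking interleukin-18 (KO) against prefrontal cortex of wild-type mice (WT), on 1 one-colour Agilent array a side. Each array held RNA pooled in equal amounts from 5 male mice of 12 weeks, so the comparison has no replicate and no test within it. Members were the gene probes that the scanner software marked as well above background on both arrays and whose mean level over the pair was above the median of such probes. Of 41174 gene probes, 29430 were well above background on both arrays and 14715 of these were members. With the brightest member probe taken for each gene, they stood for 12271 genes and transcripts, of 33390 on the array, and 8630 of them had a gene name. A level is the log2 processed signal minus the 75th percentile of its array, and a difference is the KO level minus the WT level.

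Per the labels, both groups were littermates of the second generation from a cross of IL-18-/- mice with C57BL/6J, with C57BL/6 given as the strain. The labels name no promoter or cell type that restricts the loss. The prefrontal cortex came from a slice 2.5 to 3.5 mm from bregma, which the sample labels call posterior and the design text of the series calls anterior. From each pool 400 ng of RNA were labelled with Cy3. The other regions on the remaining 10 arrays were olfactory bulb, striatum, hippocampus, hypothalamus and amygdala, each with 1 WT and 1 KO pool, and whether 1 set of mice gave all regions of a genotype is not stated in the labels. Each region had its own slide. WT arrays always took one place on it and KO arrays another, so genotype and place cannot be told apart.

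Interleukin-18 is a cytokine of the interleukin-1 family that is made as an inactive precursor and released after cleavage by caspase-1. It binds the receptor chains encoded by Il18r1 and Il18rap, and signals through Myd88 and the Irak kinases to NF-kappaB and MAP kinases. In the brain it is made by microglia and by some other cells, among them ependymal cells and neurons of certain regions. The prefrontal cortex holds layered glutamate neurons, GABA interneurons, glia and vessels, and takes part in planning, the control of emotion and stress responses.

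The 75th percentile of the signal was 502 on the WT and 545 on the KO array of prefrontal cortex, and 76.6% and 72.9% of gene spots were well above background, within the range of 60.8% to 81.3% over the 12 arrays. Over the members the 2 arrays correlated with r = 0.986 across genes, above the correlation of either with any array of another region (0.858 to 0.968). Cortical markers were present: the probe of Fezf2, a transcription factor of deep-layer projection neurons, read 0.98 in WT and 0.76 in KO against -3.88 to -0.054 on the other 10 arrays, and that of Cux2, an upper-layer factor, read 1.24 and 0.84 against -1.80 to -0.26. For the striatal dopamine receptor gene Drd2 both prefrontal arrays read -3.85, and Ttr, which marks choroid plexus, was not well above background on either. The number of arrays limits the precision of every value below. The scanner software's error of a difference had a median of 0.20 over the members, and repeated spots gave an SD of 0.12 for a difference, both of which cover measurement on the array and nothing between mice.

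The targeted gene read as the labels say. The Il18 probe had a level of 0.57 in WT prefrontal cortex and -3.70 in KO, still above background, a difference of -4.26 ± 0.080 (spot error) or 19.2-fold. Because its KO reading pulled the mean level of the pair to -1.57, below the brightness threshold of -1.28, Il18 is not itself a member. Its difference lay between -5.10 and -3.73 in the other 5 regions. Across olfactory bulb, striatum, hippocampus and hypothalamus it averaged -4.20 ± 0.14 (SE), with an adjusted p of 0.018 in limma. At the brightness threshold, the member just inside differed by -0.20 and the probe just outside by 0.28. The receptor genes Il18r1 and Il18rap were not well above background in prefrontal cortex of either genotype. For Il18bp, the secreted decoy that binds the cytokine, both probes lay below the brightness threshold, with differences of -0.63 and -0.28.

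Few genes differed by much. Among the 12271 members, 41 (0.334%) were at least 2-fold higher in KO and 150 (1.22%) at least 2-fold lower. At 1.5-fold the counts were 344 (2.8%) higher and 488 (3.98%) lower. The median difference over all members was -5.2e-05, with 6134 members higher and 6137 lower. When the arrays were scaled on their medians instead of the 75th percentile, the median of all members moved to 0.12, and the 1.5-fold counts became 580 higher and 325 lower, so that the share of higher among all 1.5-fold calls went from 41.4% to 64.1%. The change of scaling added the same amount to every difference. The sign of a small difference therefore depends on the scaling, while a list's distance from the median of all members does not. A group's value is thus best read against the median of all members. The median absolute difference was 0.15 here, against 0.091 in olfactory bulb, 0.13 in striatum, 0.11 in hippocampus, 0.075 in hypothalamus and 0.21 in amygdala over the same genes.

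**Figure D1:**
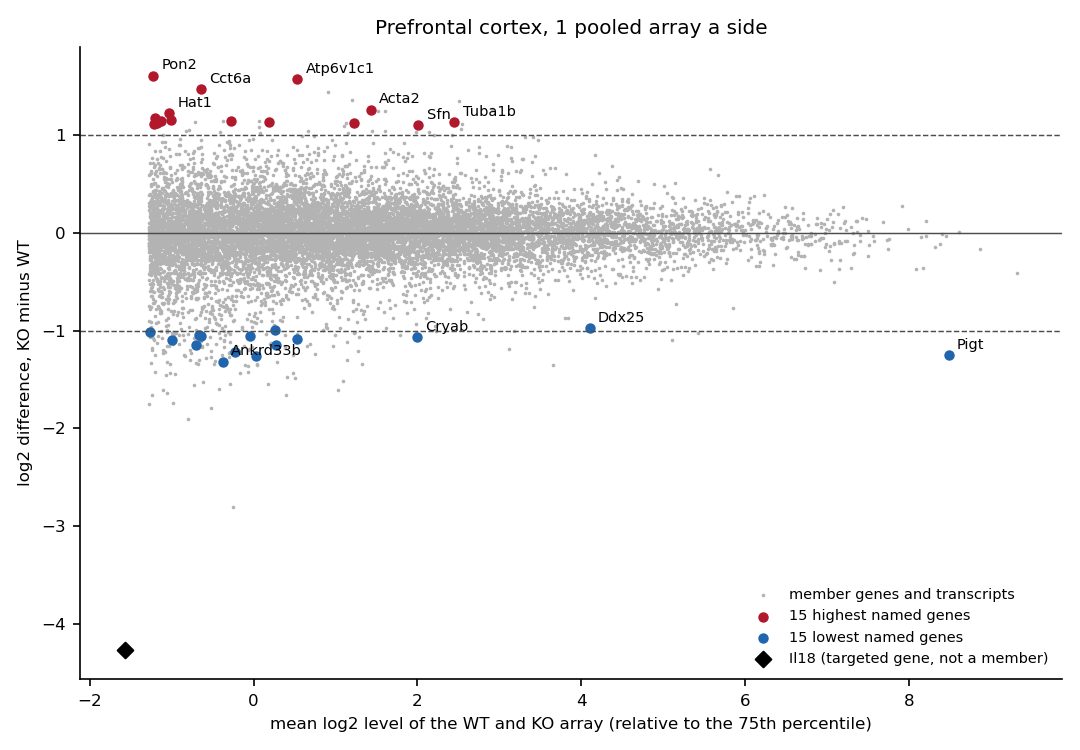
The difference KO minus WT (log2, vertical axis) is plotted against the mean level of the pair (log2, horizontal axis) for the 12271 members as grey points, with the 15 highest named genes in red, the 15 lowest in blue and Il18 as a black diamond. Dashed lines mark 2-fold. Most members lie near 0, the spread narrows towards bright genes, and Il18 at -4.26 lies far below all members.

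The named genes were balanced differently from the unnamed transcripts. Of the 8630 named genes, 22 were 2-fold higher and 13 lower. At 1.5-fold, 232 (2.69%) were higher and 135 (1.56%) lower. The largest difference belonged to Pon2, a membrane paraoxonase that limits oxidative damage, at -2.03 in WT and -0.43 in KO, a difference of 1.60 ± 0.21 (spot error) or 3.03-fold. Its other probe, below the brightness threshold, gave 1.24. Atp6v1c1, a subunit of the proton pump that acidifies vesicles and lysosomes, went from a level of -0.25 in WT to 1.32 in KO, a difference of 1.56 ± 0.20. Cct6a, a subunit of the chaperonin that folds actin and tubulin, stood at -1.37 in WT and 0.092 in KO, a difference of 1.46 ± 0.21. All 3 were far beyond the spot error.

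Among the next genes at the high end were some of the cytoskeleton. Acta2, smooth muscle actin, had a level of 0.80 in WT and 2.06 in KO, a difference of 1.25, while its second member probe differed by only 0.19. Tuba1b, an alpha-tubulin, read 1.89 in WT and 3.02 in KO, and Tubb4b, a beta-tubulin, read 0.67 and 1.78, with differences of 1.13 and 1.11. Nckap1, a part of the WAVE complex that drives actin branching, read -0.37 and 0.75, a difference of 1.13, and its dimmer second probe gave 1.67. Actins and tubulins are families of near-identical sequence, and probe sequences were not used here, so signal from one member on another's probe cannot be told apart.

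The other genes at the high end served metabolism, signalling and protein handling. Hat1, which acetylates newly made histones, had a level of -1.64 in WT and -0.42 in KO, a difference of 1.22. Eno1, a glycolytic enzyme, had -1.73 and -0.62, a difference of 1.11. Mrpl15, a protein of the mitochondrial ribosome, differed by 1.15. Ppp1r7, a regulatory subunit of protein phosphatase 1, differed by 1.14, but its second member probe gave -0.16. Magee1 differed by 1.14, the neuronal calcium-binding protein gene Necab1 by 1.11 and Sfn, a 14-3-3 protein, by 1.10, though 2 dim probes of Sfn gave -0.47 and -0.13. Gabbr1, a subunit of the metabotropic GABA receptor, read -1.79 in WT and -0.62 in KO, a difference of 1.17, but its dimmer probe gave -0.32.

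At the low end, the named genes were of mixed function. Ankrd33b, an ankyrin repeat gene, had a level of 0.28 in WT and -1.04 in KO, a difference of -1.32 ± 0.21, whereas its second member probe differed by 0.11. Tnfrsf25, a death-domain receptor of the TNF receptor family, read 0.66 and -0.61, a difference of -1.26, and a dim second probe gave 0.085. Pigt, a subunit of the enzyme that attaches GPI anchors, read 9.11 in WT and 7.86 in KO, a difference of -1.25, on a probe among the brightest of the arrays, while its other probe had levels of -2.73 and -2.40 and so pointed the other way. Rbm26, an RNA-binding protein gene, read 0.38 and -0.84, a difference of -1.22, with 0.17 on a dim second probe. Atxn7, a subunit of the SAGA histone acetyltransferase complex, read 0.85 and -0.30, a difference of -1.15. Each of these stood lower in KO on the probe that represents it, but for all of them except Atxn7, which had 1 probe, the second probe pointed the other way.

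Cyp26b1, the enzyme that clears retinoic acid, read 1.08 in WT and -0.011 in KO, a difference of -1.09. Gpx2, a glutathione peroxidase, read -0.12 and -1.27, a difference of -1.15. Cryab, a small heat shock protein whose gene lies close to Il18, read 2.53 and 1.46, a difference of -1.06, and its second member probe gave -0.53. S100a9, a calcium-binding protein of neutrophils and monocytes, differed by -1.06 and Kcnq1ot1, a long noncoding RNA of an imprinted region, by -1.06. Itga8, an integrin chain, differed by -1.05 on one probe and -0.92 on the other, Myef2 by -1.09, the nucleotide sugar transporter gene Slc35d1 by -1.02 and the splicing factor gene Zranb2 by -0.99. Ddx25, an RNA helicase, had a bright probe at 4.59 in WT and 3.61 in KO, a difference of -0.97, and a dimmer member probe that differed by 0.89 in the opposite direction.

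Several genes thus had probes that disagreed. Among the 30 genes at least 1.5-fold higher that had more than 1 member probe, 27 had all probes in the same direction and 20 had every probe past 1.5-fold. Among the 32 such genes at least 1.5-fold lower, 23 had all probes in the same direction and 5 had every probe past 1.5-fold. Over all 1896 genes with more than 1 member probe, 1192 had all probes in the same direction and 25 had every probe past 1.5-fold. The difference between higher and lower genes was not tested.

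The same genes were next read on the arrays of the other regions, which the choice of genes did not use. Of the 232 named genes at least 1.5-fold higher in prefrontal cortex, 97.8% were also higher in KO in olfactory bulb, 97.0% in hippocampus, 91.8% in hypothalamus and 69.1% in striatum. Over all named members the corresponding shares were 48.5%, 52.1%, 63.1% and 43.2%. The sizes were smaller elsewhere, with medians of 0.33, 0.37, 0.16 and 0.11. Of the 135 genes at least 1.5-fold lower, 95.6% were lower in olfactory bulb, 91.1% in hippocampus, 83.7% in hypothalamus and 81.5% in striatum, against 51.5%, 47.9%, 36.9% and 56.8% of all named members. Their medians were -0.22, -0.40, -0.13 and -0.26. In the amygdala pair, whose WT array correlated best with hypothalamus WT (r = 0.998, against 0.980 with its own KO array), the shares were 98.3% and 92.6%, against 55.7% and 44.3% of all named members. Since the pools may hold the same mice and the slide positions were the same, neither mice nor position is independent between regions.

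For single genes the other regions ranged from full agreement to opposition. Pon2 was higher in KO in all 4, by 0.53 in olfactory bulb, 1.06 in striatum, 0.86 in hippocampus and 0.36 in hypothalamus. Cct6a was higher in olfactory bulb (0.80), hippocampus (0.61) and hypothalamus (0.16) and lower in striatum (-0.37). Gabbr1 was lower in hypothalamus by -1.10 and higher in the other regions. Tnfrsf25 was lower in all 4, between -0.63 and -0.41, and Cryab between -1.48 and -0.86. Of the 22 named genes 2-fold higher, 12 kept 1 direction in all 4 regions and none was opposite in all 4, and of the 13 lower genes 7 kept their direction and none was opposite in all 4.

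**Figure D2:**
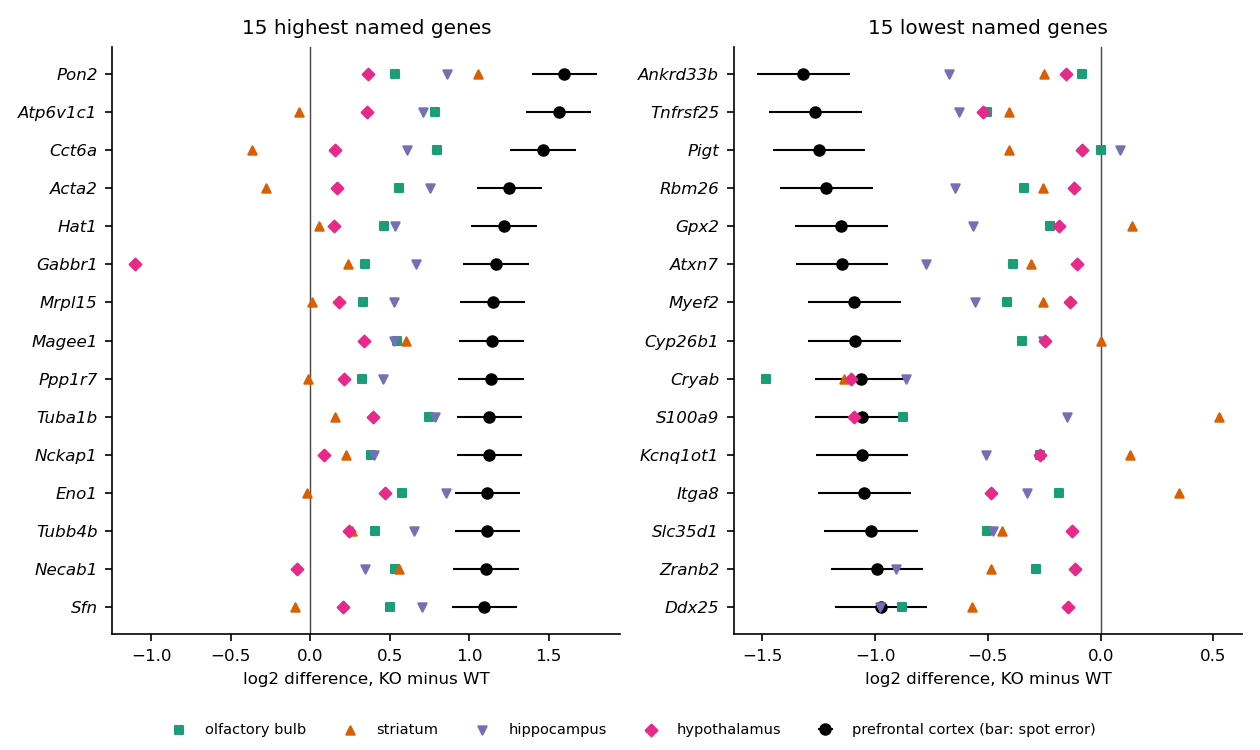
The difference KO minus WT (log2, horizontal axis) is shown for the 15 highest (left) and 15 lowest (right) named genes in prefrontal cortex as black circles with the spot error as a bar, and in 4 other regions as coloured symbols. Most coloured symbols lie between 0 and the black circles, the striatum (orange triangles) crosses 0 most often, and Cryab is about as low elsewhere as in prefrontal cortex.

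Whether a gene differed more or less in prefrontal cortex than elsewhere was tested with an interaction term in limma over 10 arrays, taking the spread of the difference among the other 4 regions as the error. None of 23450 genes and transcripts (0%) passed an adjusted p of 0.05, with 2059 at an unadjusted p under 0.05, 735 of them members. With background corrected by normexp 3 passed, none of them a member. In simulated data the same fit recovered 9% of genes set to differ by a log2 of 1 and 55% of those set to differ by 2, so it could miss most differences of the size seen here. Across the other 4 regions alone, 1 of 23450 (0.00426%) passed, Il18 itself. The members with the smallest interaction p were Trpm4, a calcium-activated cation channel, Spag5, a spindle protein, and Pmf1, a kinetochore protein, on the lower side, and Rtn4, which encodes the neurite growth inhibitor Nogo, Nckap1 and Esrrg, an orphan nuclear receptor, on the higher side. Trpm4 read -0.084 in WT and -0.79 in KO prefrontal cortex, a difference of -0.71 against a mean of 0.032 elsewhere (unadjusted p = 0.0013, adjusted p = 0.38, limma). Pmf1 differed by -0.86 here against 0.21 elsewhere (adjusted p = 0.39, limma). Rtn4 read 2.91 and 3.89, a difference of 0.98 against 0.29 elsewhere (adjusted p = 0.42, limma), and a second probe of equal brightness gave 1.14. Esrrg differed by 0.78, with -0.16 on a dimmer probe. Spag5 and Pmf1 were higher in KO in all 4 other regions and lower here, yet the fit across all genes did not call either.

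The kind of transcript mattered for the direction. The array names its probes by the database record they were designed on. Members designed on curated RefSeq mRNA records numbered 8835, with a median difference of 0.011, 235 at least 1.5-fold higher and 147 lower. The 1567 members designed on full-length cDNA clone records of the AK series had a median of -0.065, with 28 higher and 236 lower. These clones made up 12.8% of the members and 48.4% of those at least 1.5-fold lower. All of the 10 lowest members were such clones without a gene name. The lowest of them read 1.15 in WT and -1.65 in KO, a difference of -2.80, and was also lower in hippocampus by -2.84, in olfactory bulb by -1.18, in hypothalamus by -0.71 and in striatum by -0.38.

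Clones were dimmer than curated mRNA records, with a median mean level of 0.27 against 1.29, and dim members had more low readings. Within the dimmest quartile of the members 24.9% of the clones and 2.62% of the curated records were at least 1.5-fold lower, and within the second quartile 13.3% and 2.51%. In the third quartile the shares were 6.13% and 1.20%, and in the brightest 2.40% and 0.61%. The clones thus held more low readings than the curated records at each brightness. In other regions the split of clones past 1.5-fold was 8 higher to 87 lower in hippocampus, 4 to 16 in hypothalamus and 5 to 7 in olfactory bulb. It was 64 to 11, the other way, in striatum and 63 to 280 in amygdala. Over all members the splits in that order of regions were 82 to 296, 26 to 65, 31 to 36, 217 to 85 and 502 to 824. The turn in striatum was thus seen over all members too. What these clones represent was not tested.

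**Figure D3:**
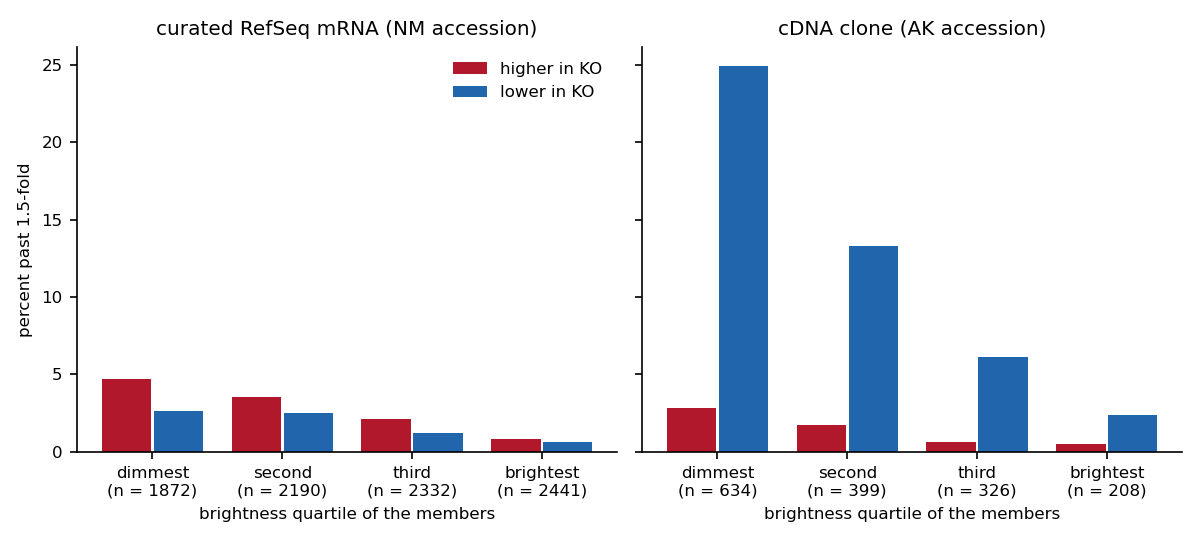
Bars give the percent of members at least 1.5-fold higher (red) or lower (blue) in KO prefrontal cortex within each brightness quartile of the members, for probes designed on curated RefSeq mRNA records (left) and on cDNA clone records (right), with the number of members under each quartile. Clones 1.5-fold lower fall from 24.9% in the dimmest to 2.40% in the brightest quartile, above the curated records in each.

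Immediate early transcription factors, which neurons induce within minutes of activity and which are often used as its readout, were more often lower than higher. Of 20 members, 14 were lower and 6 higher in KO, against 47.5% lower among all named members, with a median of -0.18 against 0.012 for all named members. Past 1.5-fold were 4 lower and none higher, against 1.56% and 2.69% of all named members. Nr4a2 had a level of -0.27 in WT and -0.89 in KO, Ier2 of 1.16 and 0.55, Btg2 of 0.76 and 0.15, and Fos of -0.034 and -0.62. Egr2 lay just short of the rule with 0.36 in WT and -0.22 in KO. On the opposite side, Fosb read -1.15 in WT and -0.65 in KO, and Fosl2 -1.45 and -0.94. The list's median was of like size in olfactory bulb (-0.20), striatum (-0.18), hippocampus (-0.17) and hypothalamus (-0.20), and 0.032 in amygdala. Single genes varied more. Fos was lower in all 4 of the first regions, by -0.46 to -0.27, and Ier2 by -0.44 to -0.14. In striatum, however, Nr4a2 was higher in KO, at -0.67 in WT and 0.70 in KO, and so was Npas4, at -0.83 and 0.59. Nr4a2 was lower in olfactory bulb, hippocampus and hypothalamus. Btg2 was higher by 0.044 in hippocampus and lower in the other 3. Under scaling on array medians, which moves every difference alike, the list stayed below 0.

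The promoters of these genes are shown for the letters of the cyclic-AMP response element (CRE), through which the activity-regulated factor CREB acts. Given are the 250 bases before the RefSeq start, build GRCm38.p6, for the 3 of the 4 genes past 1.5-fold lower that were matched in the promoter table, Fos at chr12:85473640-85473889 (+ strand), Nr4a2 at chr2:57124004-57124253 (- strand) and Btg2 at chr1:134079156-134079405 (- strand), each written along the gene. Capitals mark the CRE core TGACG on either strand, or the whole element TGACGTCA where it occurs, which holds the core on both strands.
Fos: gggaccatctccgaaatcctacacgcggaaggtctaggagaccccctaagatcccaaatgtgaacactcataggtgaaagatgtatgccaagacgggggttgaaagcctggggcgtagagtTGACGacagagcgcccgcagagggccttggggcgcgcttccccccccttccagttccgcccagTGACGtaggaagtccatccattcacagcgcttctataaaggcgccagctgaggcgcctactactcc
Nr4a2: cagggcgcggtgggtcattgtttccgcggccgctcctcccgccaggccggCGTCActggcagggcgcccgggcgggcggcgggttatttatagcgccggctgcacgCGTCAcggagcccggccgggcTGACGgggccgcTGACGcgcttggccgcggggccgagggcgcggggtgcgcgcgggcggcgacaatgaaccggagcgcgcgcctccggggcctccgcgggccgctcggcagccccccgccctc
Btg2: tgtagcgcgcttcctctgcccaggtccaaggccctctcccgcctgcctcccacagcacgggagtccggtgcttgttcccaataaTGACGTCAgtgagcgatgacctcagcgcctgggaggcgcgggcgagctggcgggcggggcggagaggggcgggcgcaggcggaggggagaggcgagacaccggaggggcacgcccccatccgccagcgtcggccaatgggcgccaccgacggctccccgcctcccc
Fos held 2 cores, Nr4a2 held 4, and Btg2 held the whole element, counted as 2 overlapping cores. Of 16 immediate early members with a promoter in the table, 11 had the core in at least 1 promoter, 1 had the whole element and 1 had a CArG box, the site of serum response factor. Among all 32841 promoters of the same length, 17.8% held the core, 1.55% the whole element and 1.47% a CArG box. These shares count promoters, whereas the 16 are genes, so the 2 are not on the same footing. Egr2, the gene with the CArG box, had more than 1 promoter. These matches describe the letters of the window alone. Fosb, which was higher in KO, held the core as well.

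Of 20 effectors induced by activity 12 were lower, against 47.5% of all named members, with a median of -0.13, and the 1 past 1.5-fold was higher. Arc, which removes AMPA receptors from synapses, had levels of 4.38 in WT and 3.92 in KO, a difference of -0.46. Scg2, a granin of dense-core vesicles, was that gene, at 0.35 in WT and 1.01 in KO.

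Receptors for glutamate and GABA are read against all named members, of which 52.5% were higher and 47.5% lower. Past 1.5-fold, 2.69% of all named members were higher and 1.56% lower. All 3 NMDA receptor members were lower, Grin2d at 1.53 in WT and 1.09 in KO, Grin2c at 3.08 and 2.67, and Grin1 by only -0.021. Of 11 AMPA and kainate receptor members 8 were lower, with a median of -0.16. Gria2, the subunit that makes the channel impermeable to calcium, read 5.21 in WT and 4.74 in KO, and Gria4 read 0.47 and 0.026. Cacng8, an auxiliary subunit that carries AMPA receptors to the synapse, was the exception at -1.51 and -0.64, a difference of 0.87. The 3 metabotropic glutamate receptor members had 1 higher, 2 lower and a median of -0.0015. Of 12 GABA receptor members 8 were higher, with a median of 0.16, led by Gabbr1. Potassium channels had 22 of 31 members higher and a median of 0.13, with 1 past 1.5-fold, Kcnip1, a channel-binding protein, at -1.41 and -0.80. Among 24 genes of synaptic vesicles 16 were lower, with a median of -0.037 that turns positive under scaling on array medians, Rims1 at -0.88 and -1.64 and Rab3c at -1.62 and -0.86 being the ones past 1.5-fold.

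Genes of protein turnover and energy supply are given beside the values of all named members, 52.5% higher, 2.69% and 1.56% past 1.5-fold in the higher and lower direction, and a median of 0.012. None of these lists was tested. Of 36 proteasome members 28 were higher, 5 of them past 1.5-fold and none lower by that much, with a median of 0.17. Psma6, of the core ring, had 1.62 in WT and 2.65 in KO, and Psmd8, of the regulatory cap, 0.24 and 1.23. Among 62 cytoplasmic translation factors 43 were higher, with 5 higher and 2 lower past 1.5-fold and a median of 0.10. Eef2, the elongation factor that moves the ribosome along, read 2.58 and 3.38. Eif4ebp3, which holds back cap-dependent initiation, read 0.46 and -0.26. Of 77 subunits of the respiratory chain 50 were higher, 4 past 1.5-fold, among them Sdhb of complex II at 2.82 and 3.79 and Ndufa10 of complex I at 1.24 and 2.09, with a list median of 0.075. Chaperones had 30 of 44 members higher and a median of 0.10. Cytosolic ribosomal proteins, in contrast, had 32 of 77 higher and a median of -0.035, which is positive under scaling on array medians, and only Rpl4 past 1.5-fold, at 1.37 and 2.16. In olfactory bulb, striatum, hippocampus and hypothalamus the proteasome median lay between -0.050 and 0.093.

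Some families were looked at only because a member stood at the high end, so their counts are a description. Of all named members 52.5% were higher, with a median of 0.012. All 8 members of the CCT chaperonin were higher, with a median of 0.44, from Cct7 at 4.59 in WT and 4.64 in KO to Cct6a. All 4 actins were higher, including Actg2 at -0.43 and 0.58 and Actb at 1.06 and 1.34. Of 18 vacuolar proton pump members 15 were higher with a median of 0.17, Atp6v1e1 at 2.19 and 3.03 among them. Tubulins were split 7 to 5, with the brightest, Tubb2a, at 7.57 in WT and 7.54 in KO.

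**Figure D4:**
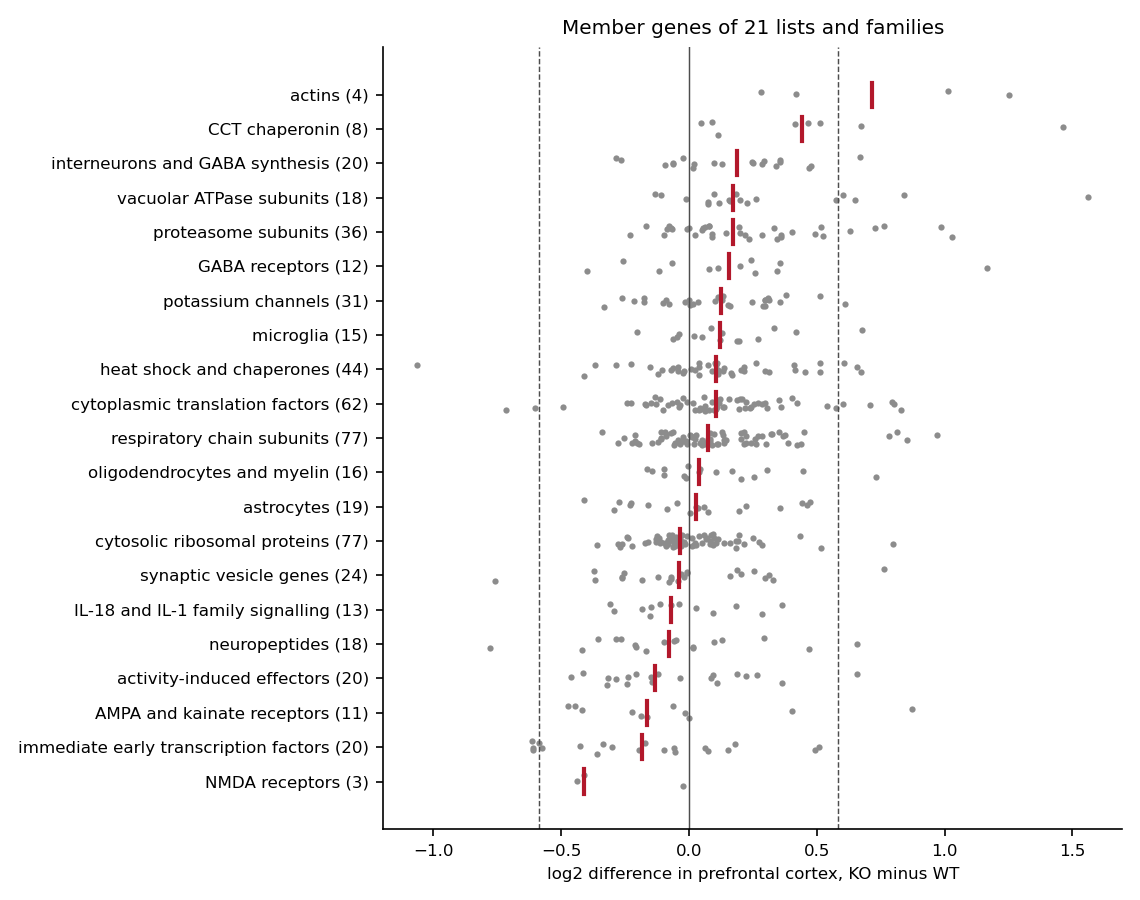
Each grey point is the difference KO minus WT (log2, horizontal axis) of 1 member gene, grouped by list with the number of members in brackets, and the red mark is the list's median. Dashed lines mark 1.5-fold. Medians run from -0.41 for the NMDA receptors to 0.72 for the actins, and most lists straddle 0.

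Cell type markers showed small differences, given here beside the 52.5% of all named members that were higher and the 2.69% that were higher past 1.5-fold. Tissue RNA cannot tell fewer cells of a type from less RNA per cell. Of 15 microglial members 11 were higher, with a median of 0.12 and 1 past 1.5-fold. The complement genes C1qa, C1qb and C1qc, which microglia make, read 0.78 in WT and 1.46 in KO, 0.35 and 0.77, and 2.50 and 2.77. The lowest member was Ly86, at 0.95 and 0.75, and Trem2 and Selplg differed by -0.063 and -0.039. Of the markers below the brightness threshold, Laptm5 read -1.32 and -1.86 and Itgam -3.08 and -3.61. Siglech read -3.73 and -3.02 and Gpr34 -2.48 and -1.64, the other way. The 4 other regions had C1qa higher as well, by 0.26 to 0.46. Interneuron genes had 14 of 20 members higher and a median of 0.19, with Htr3a, the serotonin-gated channel of one interneuron class, past 1.5-fold at -0.34 and 0.33, and Pvalb, the calcium buffer of fast-spiking cells, at 0.60 and 1.08. Pallial transcription factors were split 7 to 6. Mef2c, an activity-regulated factor of cortical neurons, read 5.52 in WT and 4.78 in KO, a difference of -0.73, and was lower in all 4 other regions too (-0.81 to -0.24). Of 19 deep-layer members 11 were higher and 8 lower, with a median of 0.0060. Past 1.5-fold 2 were lower and none higher, against 1.56% and 2.69% of all named members. Rprm, the lowest of them, read 3.50 and 2.82, and its second probe gave -0.65. Sema3e and Deptor, on the same list, were higher by 0.54 and 0.49.

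Astrocyte genes had 11 of 19 members higher and a median of 0.029, and oligodendrocyte genes 9 of 16 and 0.041. Of the latter only Trf, the iron carrier transferrin, passed 1.5-fold at 1.03 and 1.76, while Mbp, a main myelin protein, differed by -0.0099. Endothelial and pericyte genes had 11 of 17 lower and a median of -0.085, which is positive under scaling on array medians, Acta2 being the only one past 1.5-fold. Markers of neighbouring tissue were read on both arrays. For the striatal list (17 genes with a probe) the median level was -0.56 in WT and -1.05 in KO, against up to 2.86 on other arrays, though 7 of its 11 members were higher in KO and the median difference was 0.015. For the olfactory bulb list (19 genes) the median level was -1.37 and -2.21, against up to 2.02. Of its 8 members 4 were higher, with a median difference of -0.0046. Over its 17 genes above background on both arrays the median difference was -0.14. Doc2g, Tbx21 and Cdhr1, below the brightness threshold, read -0.86, -1.55 and -1.37 in WT and -2.31, -2.73 and -2.46 in KO. Th, Trh and Calca, also below it, were lower in KO by smaller amounts, Trh at -3.53 and -3.70. Sp8, Barhl2 and Cbln4, likewise below it, were higher in KO by smaller amounts, Cbln4 at -2.35 and -2.05. Barhl2 and Calca read -3.97 and -2.14 in WT olfactory bulb, below their -3.54 and -1.93 in WT prefrontal cortex. For choroid plexus (12 genes) the median level was -4.39 on both. The red cell list (5 genes) had 0.60 and 0.34. The part of neighbouring tissue in the gene differences was not tested.

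Genes of the pathway around interleukin-18 are given beside all named members, 52.5% of them higher and 47.5% lower. Past 1.5-fold, 2.69% of all named members were higher and 1.56% lower, so lists of this size would hold few or none. Of 13 members of interleukin-18 and interleukin-1 signalling 8 were lower and 5 higher, none past 1.5-fold, with a median of -0.068 that is positive under scaling on array medians. Irak1, a kinase below the receptor, read 0.98 in WT and 0.67 in KO, but its other member probes differed by -0.0085 and 0.17. Myd88, the adaptor, read -0.37 and -0.56, and Il33, another cytokine of the family, 1.29 and 1.65. Interferon response genes had 9 of 11 members higher and a median of 0.097, and antigen presentation genes 5 of 7 and 0.12, none of either past 1.5-fold. Casp1, the processing enzyme, lay below the brightness threshold at -1.80 in WT and -1.34 in KO.

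Among 18 neuropeptide members 11 were lower, against 47.5% of all named members, with a median of -0.079 that is positive under scaling on array medians. Nmb, which encodes neuromedin B, was lower past 1.5-fold at 0.063 in WT and -0.72 in KO. Nmb is also on the olfactory bulb list and read 4.52 in WT olfactory bulb. Adcyap1, which encodes PACAP, read 2.31 and 1.89, and Cck, abundant in cortical neurons, 7.30 and 7.02. Sst, Npy and Penk differed by 0.098, 0.016 and 0.014. Pdyn read 3.62 and 3.92. Clock genes had 9 of 16 members higher and a median of 0.021. Genes that respond to glucocorticoids had 9 of 16 and 0.073, against 52.5% and 0.012 over all named members. None of either was past 1.5-fold, against 2.69% higher and 1.56% lower of all named members. Klf9, which glucocorticoid receptors induce, came closest at 1.69 and 2.27.

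Genes beside Il18 were read as a group because genes beside a targeted locus are inherited with it in a cross. Of the 100 named members nearest to Il18 in gene order, 46 were higher and 54 lower, with a median of -0.034 that is positive under scaling on array medians, and 4 were higher and 3 lower past 1.5-fold, against 2.69% and 1.56% of all named members. Lower were Cryab, Alg9, a mannosyltransferase of N-glycan synthesis, at 1.05 in WT and 0.40 in KO with -0.21 on its second member probe, and Ddx6, an RNA helicase of P-bodies, at 0.94 and 0.25. Higher were Elmod1 at -0.92 and 0.11, 1110032A03Rik at 0.24 and 0.96, Htr3a, and Hyou1, a chaperone of the endoplasmic reticulum, at 2.22 and 2.83. Cryab lies 7 members and Alg9 10 members from Il18, on the same side. Both were lower in all 4 other regions by about as much, with means of -1.15 ± 0.11 (SE, adjusted p = 0.37, limma) and -0.59 ± 0.068 (SE, adjusted p = 0.37, limma). Hyou1 was higher in all 4, by 0.31 to 0.60, and 1110032A03Rik by 0.18 to 0.62, whereas Htr3a averaged only 0.043 there. Nnmt, chosen after its values were seen, went the other way: it read -1.20 in WT and -1.14 in KO prefrontal cortex, but was lower in KO by -1.30 in olfactory bulb, -0.45 in striatum and -1.60 in hypothalamus, and higher by 0.16 in hippocampus. A change of sequence under a probe and a change of RNA level cannot be told apart with these files.

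**Figure D5:**
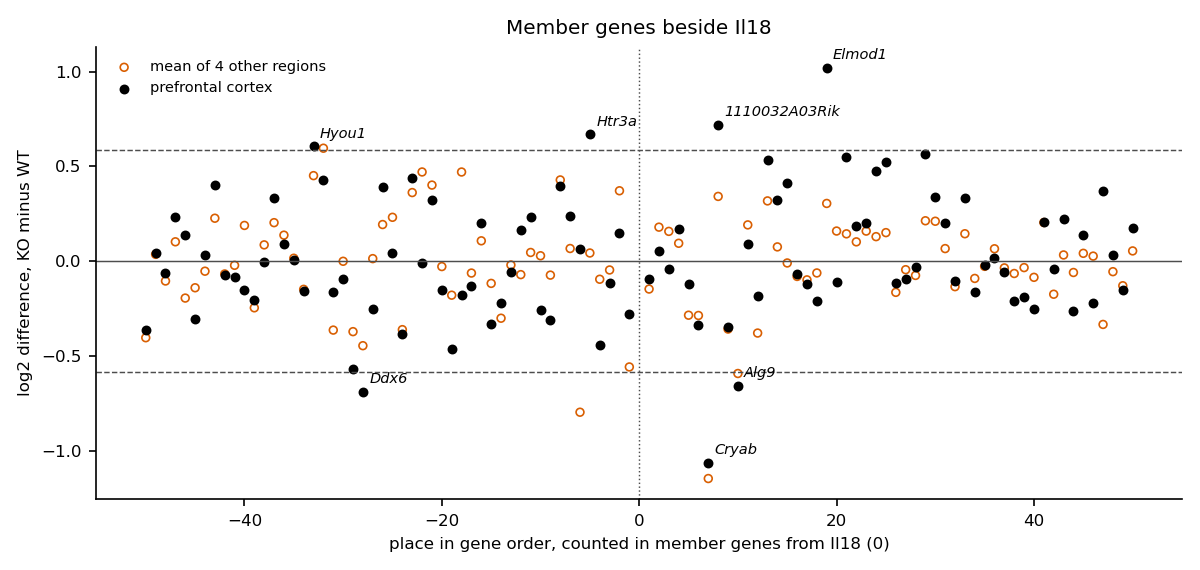
The difference KO minus WT (log2, vertical axis) is plotted for the 100 named members nearest to Il18 by their place in gene order, counted in members from Il18 at 0, with prefrontal cortex as black points and the mean of 4 other regions as open orange circles. Dashed lines mark 1.5-fold. Cryab and Alg9 lie low in both, while Elmod1 and Htr3a are higher in prefrontal cortex than in the mean of the other regions.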

How the data were processed

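Agilent Feature Extraction 9.5.3.1 produced the deposited intensity values, already background-subtracted but not scaled from array to array, per the file headers. A further deposited file gives the authors' linear ratio of KO to WT. For the single-spot probes compared, log2 of that authors' ratio equalled the difference used here minus 0.014. Here control and outlier spots were left out, log2 was taken, the array's 75th percentile over gene spots was subtracted, and spots of a probe were averaged. Accessions without versions were matched to a RefSeq table (GRCm38.p6), which named 22951 probes (55.7%), and the brightest member probe stood for a gene. Of 2507 list entries 66 had no named probe. Fits used limma 3.58.1 (lmFit, eBayes, region as a block) in R 4.3.3 with Benjamini-Hochberg adjustment over 23450 genes and transcripts, checked on simulated data. The amygdala arrays entered only an alternative. Since the files used here lack the mean spot signal, normexp (offset 50) ran on the median spot signal.

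Members and lists were chosen with earlier results of these data known. Named are Il18, the 15 highest and 15 lowest named genes (past 2-fold, then down to 1.5-fold), up to 4 members of largest difference in each list, up to 10 genes near Il18 past 1.5-fold and the 3 of smallest interaction p in each direction; further list members were chosen by role. Alternatives changed scaling, background correction, the source of the ratio, the brightness filter, the probe of a gene, the variance model and the arrays in the fit.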

Additional observations from a re-analysis of the deposited data

How the results depend on the processing

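Counts of genes past a size rule moved with scaling and with the brightness filter. At 2-fold, 73 were higher and 94 lower under scaling on array medians, 21 and 88 under normexp, 209 and 820 over all probes above background, and 18 and 21 over probes above the 75th percentile of those above background. At 1.5-fold, the counts were 580 and 325 under scaling on medians, 877 and 2142 over all probes above background, and 121 and 102 over the brighter set. The authors' deposited ratio gave 41 and 155 at 2-fold. The interaction fit passed 3 genes under normexp. The fit over the 4 other regions passed 3 under normexp, 7 over members only, and 0 to 1 when a region was left out. No named gene past 1.5-fold changed direction under any alternative run. Of the 195 named genes, 15 moved by more than their spot error with the mean of member probes, 14 under normexp, 10 under scaling on medians and 1 under quantile normalization. Scaling on medians moved all 195 by the same amount, and the 10 were those with a spot error below it. Of 45 list medians, 3 moved by more than 0.1224, the SD of a difference from repeated spots, over all probes above background. So did 3 of the 37 that could be formed over the brighter set. Scaling on medians moved every list median alike, by just less than that rule, and took the median of all members to 0.1219.

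The fits over several regions paired WT and KO by region, and within prefrontal cortex there was nothing to pair. With no replicate in prefrontal cortex, its differences carry only spot error. No probe in use was saturated, and dim members were read closest to background.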
